A study of Mus musculus with 10 samples.

Results

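Tac1 and Penk, the genes for the precursors of the gut neuropeptides substance P and enkephalin, were followed in the colon of Vista-deficient and wild-type mice with chemically induced colitis. They are 2 of the 55416 gene rows in the deposited count tables. The pair was chosen by its measured values, the counts of knockout and wild-type libraries in these same tables, so the genotype differences given for them are a description and carry no test. A further condition was position: both lie inside 3 stretches of the mouse genome, on chromosome 4 up to 59.9 Mb, chromosome 6 up to 30.3 Mb and chromosome 15 from 10.4 to 38.1 Mb (GRCm38), where counts go with the gene names. Elsewhere the names could not be used: the row named Actb, for a cytoskeletal actin present in every cell, held 75 counts over 10 libraries. The 3 stretches hold 1415 rows, and they were themselves delimited from these tables.

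The study sequenced colon RNA from 5 Vista knockout (Vista-/-) and 5 wild-type (WT) libraries. Vista (gene symbol Vsir) is an immune checkpoint receptor of myeloid and T cells. All mice, WT included, had received 2% dextran sulfate sodium (DSS), a detergent-like sugar polymer that injures the colon epithelium, in drinking water for 7 days, and there were no mice without DSS. Libraries 1 to 3 of each genotype came in a first table and libraries 4 and 5 in a second. The labels of the first table call the mutant a knockdown and those of the second write Vista-/-; strain, age and the kind of Vista allele are not given in the sources used here. The design text speaks of 3 biological replicates per group, but the labels do not say that each library is a separate mouse, so the spread given here is the spread between libraries. The 10 libraries held 3691322 to 4071238 counts. The Vsir row lies outside the 3 stretches and held 0 to 97 counts per library, so it does not check the genotype labels. Cdh17, a cadherin of intestinal epithelium inside the stretches, stood at 3393 ± 324 CPM (counts-per-million, a gene's share of its library's counts; SD, n = 5) in the knockout and 3372 ± 201 (n = 5) in WT, while none of the 17 enteric neuron marker genes looked for lay inside them.

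Peptide hormones and transmitters of the gut are made as longer precursor proteins that are cut in secretory vesicles at pairs of basic residues. The Tac1 precursor gives the tachykinins substance P and neurokinin A, which excite gut muscle and act on blood vessels and immune cells through receptors encoded by Tacr1 and Tacr2. In the colon it is known from excitatory motor neurons of the myenteric plexus, from sensory nerve fibres and from some enterochromaffin cells. The Penk precursor gives methionine and leucine enkephalin, opioid peptides that dampen motility and secretion through the receptors encoded by Oprm1 and Oprd1. It is known from enteric motor neurons and interneurons and also from some lymphocytes.

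The Tac1 row (ENSMUSG00000061762) is the gene on the plus strand at chr6:7554879-7565834, with 5 annotated transcripts and no overlapping gene. The Penk row (ENSMUSG00000045573) is on the minus strand at chr4:4133531-4138819, with 2 annotated transcripts and 1 overlapping noncoding gene, A830012C17Rik, which held 0 counts. The stretches that encode the active peptides are shown because they are what makes these rows neuropeptide genes, and because they show what a gene count cannot separate. They are taken from the GENCODE M21 transcripts, read 5′ to 3′ on the coding strand, and capitals mark the codons of the peptide with 6 flanking bases on each side in lower case.
Tac1, substance P: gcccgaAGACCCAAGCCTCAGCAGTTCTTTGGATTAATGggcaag
Tac1, neurokinin A: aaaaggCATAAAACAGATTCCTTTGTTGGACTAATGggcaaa
Penk, methionine enkephalin, copy 1: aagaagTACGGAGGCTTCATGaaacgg
Penk, methionine enkephalin, copy 6: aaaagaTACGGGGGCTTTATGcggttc
Penk, leucine enkephalin: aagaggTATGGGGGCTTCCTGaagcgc
Substance P is encoded at chr6:7556732-7556764 and occurs in 3 of the 5 Tac1 transcripts. Neurokinin A is encoded at chr6:7559101-7559130 and was found in the coding stretch of 2 of the 5 transcripts. A Tac1 count therefore does not say how much of it could give neurokinin A. The longer Penk transcript holds 6 matches to the sequence of methionine enkephalin and 1 to that of leucine enkephalin, all in the exon at chr4:4133531-4134507. A copy here means such a match. Copies 4 and 6 of methionine enkephalin are followed by agaagc and cggttc, which do not encode a pair of basic residues. The count of 6 is therefore not a count of peptides cut free at such pairs. Thus 1 Penk count stands for a message with several enkephalin sequences.

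Tac1 was higher in the knockout libraries, by 3.24 times in the mean, and the size of the difference varied strongly among them. Knockout libraries 1 to 5 held 2593, 2088, 2103, 452 and 661 Tac1 counts, or 644, 513, 562, 112 and 173 CPM. WT libraries 1 to 5 held 610, 471, 626, 384 and 259 counts, or 165, 119.5, 161, 103 and 70.2 CPM. Knockout libraries 1 to 3 stood far above every other library, knockout library 5 was just above the highest WT library, and knockout library 4 lay inside the WT range. The means were 401 ± 241 CPM in the knockout and 124 ± 40.0 CPM in WT (SD, n = 5 each), a coefficient of variation of 60.2% against 32.3%. That spread was wider than counting error: the 95% Wilson interval of knockout library 4 was 102 to 122 CPM and that of knockout library 2 was 491 to 535 CPM. For knockout library 5 the interval, 161 to 187 CPM, overlapped that of WT library 1, 152 to 179 CPM. These intervals cover counting error only.

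Penk was lower in the knockout libraries, and the genotypes did not overlap. Knockout libraries 1 to 5 held 300, 155, 385, 421 and 286 Penk counts, or 74.5, 38.1, 103, 104 and 75.0 CPM. WT libraries 1 to 5 held 739, 731, 524, 632 and 447 counts, or 200.0, 186, 135, 169.7 and 121 CPM. The highest knockout library, library 4, was below the lowest WT library, library 5. The means were 78.9 ± 26.9 CPM in the knockout and 162 ± 33.4 CPM in WT (SD, n = 5 each), so WT was higher by 2.06 times. Knockout library 2 had the lowest Penk level of all, with a Wilson interval of 32.5 to 44.6 CPM. Of the 427 rows inside the 3 stretches with enough counts to test, 11.5% had genotypes that did not overlap and 9.84% had every knockout library below every WT library, and 1.64% had every one above. In bulk colon RNA, fewer cells of a type and less RNA per cell cannot be told apart.

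**Figure D1:**
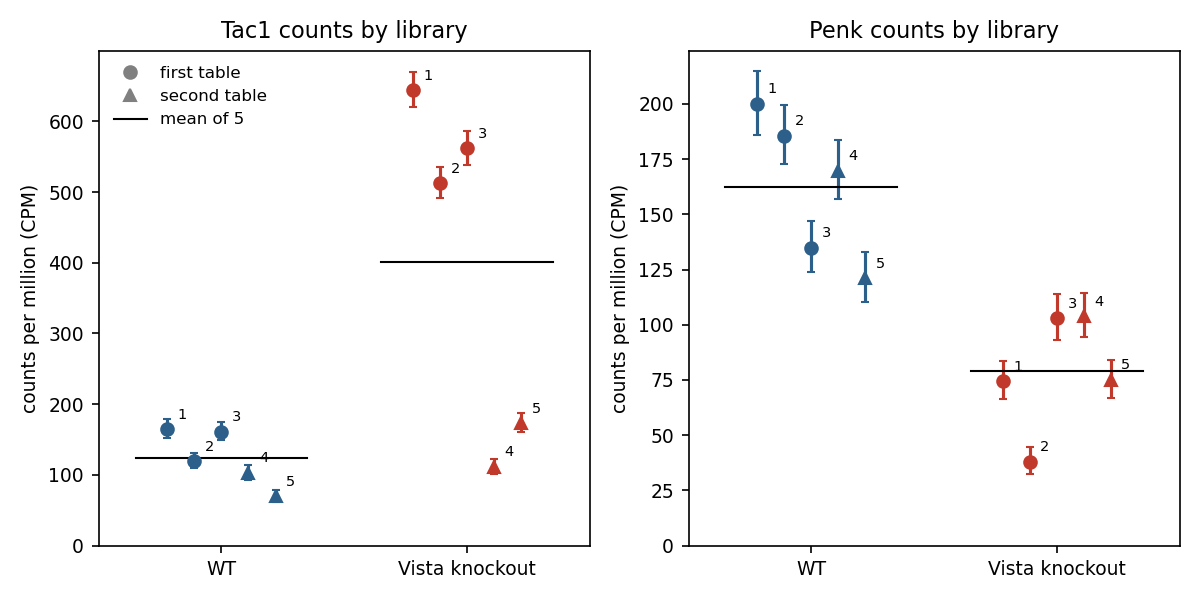
CPM of Tac1 (left) and Penk (right) in each library, by genotype; numbers name the libraries, point shape gives the deposited table, error bars are 95% Wilson intervals (counting error only) and the line is the mean of 5 libraries. Tac1 in knockout libraries 1 to 3 lies at 513 to 644 CPM, above all other libraries, while every Penk value of the knockout lies below the WT values.

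The fitted differences had the same direction in each table and over both. An edgeR quasi-likelihood fit over all rows, with the table as a covariate, gave Tac1 a log2 fold change of 1.50 ± 0.25 (SE), knockout over WT. That was the 2nd highest of the 361 protein-coding genes tested inside the stretches. For Penk the log2 fold change was -1.02 ± 0.24, the 12th lowest of the 361. These ranks rest on the contrast that chose the genes. The same fit called 8.9% of the 427 tested rows inside the stretches at an adjusted p under 0.05, and 5.63% of all 9736 tested rows, with 1.87% of the rows inside called higher in the knockout and 7.03% called lower. Within the first table it called 6.06% of rows and within the second 0.856%. The median log2 fold change was -0.03 inside the stretches and 0.02 over all rows. Leaving out any 1 library kept Tac1 between 1.33 and 1.70 and Penk between -1.16 and -0.85.

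Of the pair, Tac1 differed more between the tables. In the first table Tac1 stood at 573 ± 66.3 CPM in the knockout and 149 ± 25.2 CPM in WT (SD, n = 3 each), a ratio of 3.86 and a log2 fold change of 1.98 ± 0.15. In the second it stood at 142 ± 43.7 CPM and 86.7 ± 23.3 CPM (n = 2 each), a ratio of 1.64 and a log2 fold change of 0.72 ± 0.29. The genotypes did not overlap within either table, which was also so for 39.3% (first) and 53.3% (second) of the tested rows inside the stretches. Both genotypes had more Tac1 in the first table, the knockout by 4.02 times and WT by 1.71 times, and every first-table library was above every second-table library of its genotype. The change in the genotype difference from the first table to the second was -1.26 ± 0.32 (SE) on the log2 scale. It did not pass the edgeR test of the interaction of genotype and table (adjusted p = 0.0796), a test that called 2.05% of all rows. The call depended on the tool and on 1 library: DESeq2 gave an adjusted p of 0.00879, edgeR without knockout library 5 gave 0.0116, and edgeR gave 0.108 without knockout library 4 and 0.282, the highest, without WT library 4. Without knockout library 5 the second-table log2 fold change of Tac1 was 0.36.

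Penk levels differed less between the tables than their own spread. In the first table the knockout stood at 71.8 ± 32.5 CPM and WT at 173 ± 34.2 CPM (SD, n = 3 each), with WT higher by 2.41 times and a log2 fold change of -1.25 ± 0.27. In the second the knockout stood at 89.5 ± 20.4 CPM and WT at 145 ± 34.4 CPM (n = 2 each), with WT higher by 1.63 times and a log2 fold change of -0.70 ± 0.25. Within each genotype the Penk values of the tables overlapped. The interaction for Penk was 0.56 ± 0.45 on the log2 scale and did not pass (edgeR adjusted p = 0.639). Leaving out 1 library moved the first-table value between -1.56, without knockout library 3, and -0.95, without knockout library 2. In the second table it moved between -0.95, without knockout library 4, and -0.43, without WT library 4. The tables differ in how the labels word the genotype and in the genome build named for them, and whatever else separates the tables cannot be told apart from these.

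**Figure D2:**
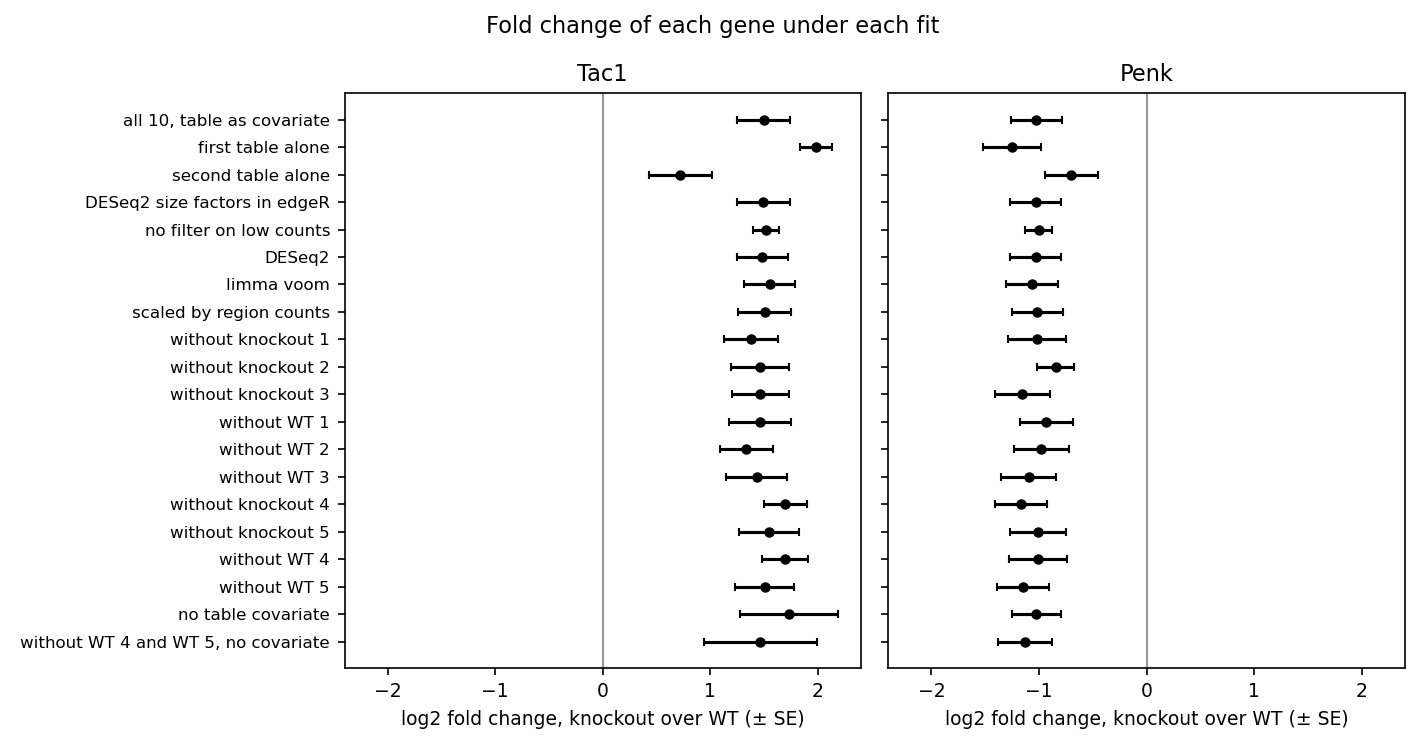
Log2 fold change, knockout over WT, of Tac1 and Penk with its SE in the fit to all 10 libraries, in each table alone and under the alternatives (other scaling, filter, tools and covariate, and each library left out). Every point for Tac1 lies to the right of 0 and every point for Penk to the left, and Tac1 is farthest from 0 in the first table, at 1.98.

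Set against each other, the 2 precursors changed places. In WT libraries 1 to 5 there were 0.825, 0.644, 1.19, 0.608 and 0.579 Tac1 counts for each Penk count. In knockout libraries 1 to 5 there were 8.64, 13.5, 5.46, 1.07 and 2.31. Knockout library 4 was below WT library 3, and the other 4 knockout libraries were above all WT libraries. The mean log2 ratio was 2.12 ± 1.47 in the knockout and -0.43 ± 0.43 in WT (SD, n = 5 each), or 4.36 and 0.741 as geometric means. A ratio of counts does not depend on library size or scaling, but it does depend on the length of each gene. Per kilobase of annotated exon (3399 bases for Tac1 and 1634 for Penk), the WT level was 36.4 ± 11.8 CPM per kb for Tac1 and 99.3 ± 20.5 for Penk (SD, n = 5), and the ranges of the genes, 20.6 to 48.6 and 74.1 to 122, did not overlap. In the knockout the per-kilobase level was 118 ± 71.0 CPM per kb for Tac1 and 48.3 ± 16.5 for Penk, with ranges of 32.8 to 190 and 23.3 to 63.6 that did overlap. Knockout library 4 kept the WT order, since its Penk value was the highest of the knockout and its Tac1 value the lowest.

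**Figure D3:**
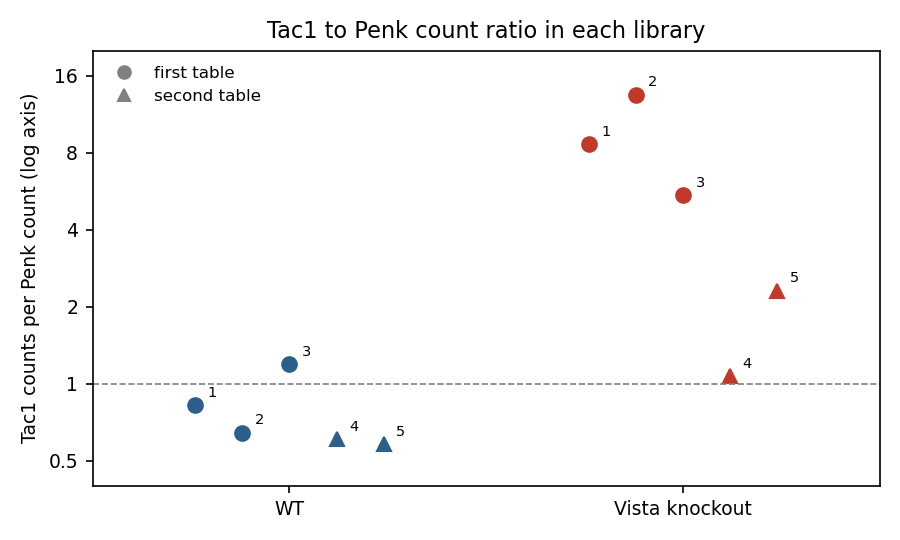
Tac1 counts per Penk count in each library on a log axis, by genotype; numbers name the libraries, point shape gives the deposited table and the dashed line marks equal counts. WT libraries lie between 0.579 and 1.19, and knockout libraries spread from 1.07 to 13.5.

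The genes around the pair were looked at to see whether the difference was shared by their neighbourhood and whether counts there belonged to expressed genes. Within 1000 kb of the Tac1 start lie 12 other protein-coding genes, of which 9 had enough counts to test and none passed (edgeR, adjusted p under 0.05; 1 at an unadjusted p under 0.05, 0 by DESeq2). With 8.9% of all tested rows inside the stretches called, few or no calls among so few genes say little about the neighbourhood. C1galt1, which builds the core of mucin-type sugar chains, held 40681 counts, Sem1, a proteasome subunit, 11964, and Asns, which makes asparagine, 10476. Their log2 fold changes were -0.070 ± 0.080, -0.045 ± 0.092 and 0.31 ± 0.19. Within 1000 kb of the Penk start lie 13 other coding genes, 8 tested and none passing in edgeR (2 at an unadjusted p under 0.05, 1 by DESeq2). Rps20, a protein of the small ribosomal subunit, held 55763 counts with a log2 fold change of 0.08 ± 0.08, and Lyn, a kinase of B and myeloid cells, came closest to passing, at 0.61 ± 0.18 (edgeR adjusted p = 0.0717). Vmn1r2 and Vmn1r3, which encode pheromone receptors, held 0 counts.

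**Figure D4:**
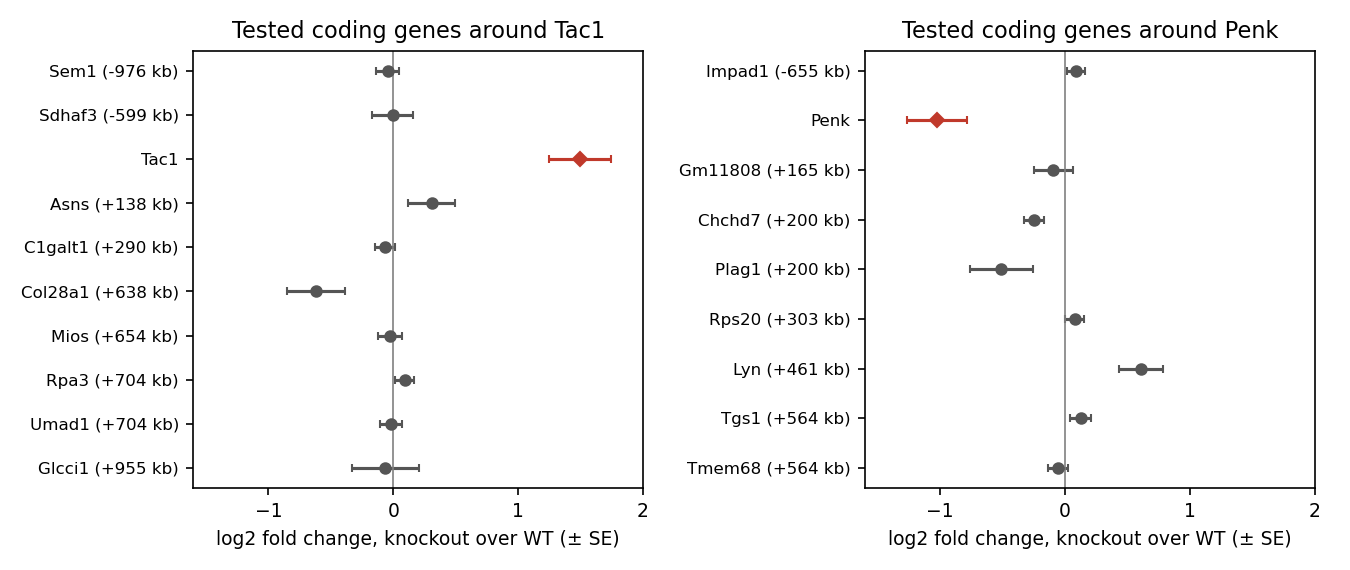
Log2 fold change, knockout over WT, with its SE for the tested coding genes within 1000 kb of Tac1 (left) and of Penk (right), ordered by distance from its start; positive distances are downstream on the strand of Tac1 or Penk. No neighbour passed the edgeR test; the Tac1 point at 1.50 and the Penk point at -1.02 are shown for comparison.

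The other genes of peptide signalling and of nerve were read from lists of peptide precursors, processing enzymes, tachykinin and opioid receptors and peptidases, neuron and synapse genes, enteric glia and enteroendocrine cells. The lists hold 172 symbols besides Tac1 and Penk. Of these, 44 lay inside the 3 stretches, 24 had enough counts to test, and 3 (Cga, Gabrr1 and Dlx6) were at 0 counts in all libraries. Of the 24, 1 passed, in the higher direction, and 0 in the lower. That share of 4.17% is under the 8.9% of all tested rows inside the stretches. The median log2 fold change of the 24 was -0.02 and 12 were negative, near the -0.03 of all tested rows there. The 24 ranged from -1.35 to 0.68. Tac1 lay above all of them, and Penk, at -1.02, lay inside their range. The pair was chosen by this same contrast.

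Enho, the gene for the secreted peptide adropin, was the only other precursor tested and the one that passed. Its CPM in knockout libraries 1 to 5 was 13.4, 11.5, 17.4, 11.4 and 15.2, and in WT libraries 8.39, 8.63, 11.1, 8.33 and 7.31. The lowest knockout library was above the highest WT library. The means were 13.8 ± 2.55 and 8.74 ± 1.39 CPM (SD, n = 5), with a log2 fold change of 0.68 ± 0.17 (edgeR adjusted p = 0.0368). The call was lost when any of 8 of the 10 libraries was left out (edgeR adjusted p of 0.0405 to 0.0921 over the 10). Lep, the leptin gene, held 34 counts in all and was not tested. Of the machinery that cuts and stores peptides, only Cadps2, a priming factor of dense-core vesicles, could be read: 171 ± 27.1 CPM in the knockout and 166 ± 14.6 in WT (SD, n = 5), a log2 fold change of 0.070 ± 0.11. It did not pass. Receptors of substance P and of the enkephalins lie outside the stretches and were not analysed here.

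None of the 19 tested neuron and synapse genes passed in edgeR, where 5 had an unadjusted p under 0.05. With DESeq2 2 passed and with limma voom 2. The shares of all rows at these settings are not given here, so these counts cannot be set against them. Epha7, a receptor of axon guidance, had 23.2 ± 16.5 CPM in the knockout and 55.8 ± 9.59 in WT (SD, n = 5) and a log2 fold change of -1.30 ± 0.39 (edgeR adjusted p = 0.0759). It passed with DESeq2 (adjusted p = 0.00972), with limma voom (0.0410) and with no filter. With no filter its log2 fold change was -1.28 and its SE 0.16, against 0.39 with the filter. Epha7 also passed without knockout library 5 (edgeR adjusted p = 0.0213, over a range of 0.0213 to 0.148). Cnr1, the cannabinoid receptor of enteric neurons, had 11.7 ± 4.11 and 19.0 ± 6.43 CPM, a log2 fold change of -0.69 ± 0.30 (edgeR adjusted p = 0.196). With no filter Cnr1 passed (edgeR adjusted p = 0.0279), with an SE of 0.21 against 0.30 with the filter. Grin3a, a glutamate receptor subunit, had the lowest log2 fold change of the 24, -1.35 ± 0.53 (edgeR adjusted p = 0.153). It passed with limma voom (adjusted p = 0.0331) and with no filter (edgeR adjusted p = 1.81e-06). With no filter its log2 fold change was -1.34 and its SE 0.24, against 0.53 with the filter. WT libraries 4 and 5 held 47.3 and 54.5 CPM of Grin3a, and the other 8 libraries held 1.23 to 10.8. Unc13b, which readies vesicles for release, had 211 ± 34.2 and 165 ± 13.8 CPM, a log2 fold change of 0.38 ± 0.10 (edgeR adjusted p = 0.0555). It passed with DESeq2 (adjusted p = 0.0241), with no filter, with scaling inside the stretches and without knockout library 4 (edgeR adjusted p = 0.0211, over a range of 0.0211 to 0.143). Tmeff1 stood at 0.32 and Ncald, a neuronal calcium sensor, at 0.29 on the log2 scale. Of the rest, Cttnbp2 was at 0.33, Basp1 at 0.19, Ctnnd2 at 0.19, Npr3 at 0.18, Sema5a at 0.066 and Cdh6 at 0.031. Cntfr was at -0.064, Musk at -0.13, Trio at -0.14, Runx1t1 at -0.16, Ica1 at -0.20, Foxp2 at -0.20 and Npr2 at -0.28. Ptprz1, the single glial gene tested, stood at 17.6 ± 8.56 CPM in the knockout and 19.5 ± 4.83 in WT (SD, n = 5), a log2 fold change of -0.16. Pax4, a factor of enteroendocrine development, stood at 3.76 ± 0.65 and 5.53 ± 3.02 CPM, a log2 fold change of -0.44. Many of these genes are also expressed outside nerve, so they do not measure the amount of nerve tissue in a library.

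**Figure D5:**
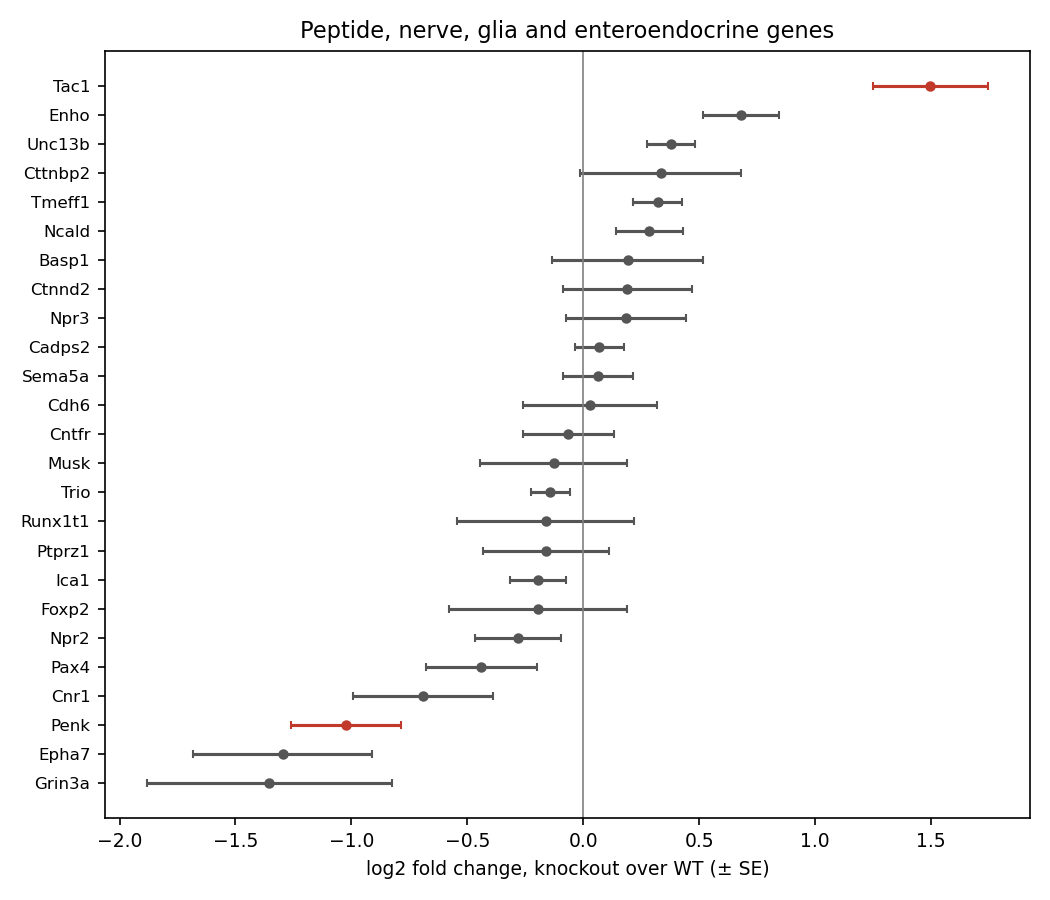
Log2 fold change, knockout over WT, with its SE for Tac1, Penk and the tested genes of the precursor, processing, nerve, glia and enteroendocrine lists. Tac1 at 1.50 lies above the genes of those lists, whose values run from -1.35 for Grin3a to 0.68 for Enho, the only one of them that passed. Penk at -1.02 lies inside that range.

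Markers of other tissue parts were set beside the pair, because enteric nerves lie in and between the muscle layers and a colon piece can hold more or less of each layer. The 4 smooth muscle markers inside the stretches summed to 1030 to 2168 CPM in the knockout and 1108 to 1912 CPM in WT, and none of the 4 passed (edgeR; 0 at an unadjusted p under 0.05, 0 by DESeq2). Knockout library 4, with the lowest Tac1 of its genotype, had the lowest muscle sum, 1030 CPM, and knockout library 5 the highest, 2168 CPM. Knockout libraries 1 to 3, with the highest Tac1, had muscle sums of 1339, 1075 and 1356 CPM, and WT libraries 1 to 3 had 1894, 1354 and 1759 CPM. The part of muscle content in the Tac1 values was not tested. The 3 T cell markers summed to 75.1 to 93.4 CPM in the knockout and 91.5 to 135 CPM in WT. Tox, which held most of that sum, fell (log2 fold change -0.59 ± 0.15, edgeR adjusted p = 0.0427). Sit1 (0.56 ± 0.51) and Bach2 (0.31 ± 0.48) lay on the other side of 0 and did not pass. Of 8 tested fibroblast markers 2 fell, Tfpi2 (-1.36 ± 0.29) and Adamts12 (-1.14 ± 0.21), and of 6 epithelial markers 1 fell, Cftr (-0.69 ± 0.16), where 7.03% of all tested rows inside the stretches were called lower. The 1 macrophage marker inside, Irf5, stood at 50.4 to 109.6 CPM in the knockout and 19.5 to 80.0 CPM in WT. Its genotype difference over both tables did not pass. In WT libraries 4 and 5 Irf5 held 22.6 and 19.5 CPM, and in WT libraries 1 to 3 it held 40.9 to 80.0. The part of these markers in the lower Penk was not tested. The 2 B cell markers summed to 102 to 218 CPM in the knockout, 114 to 254 CPM in WT libraries 1 to 3, and only 25.5 and 17.9 CPM in WT libraries 4 and 5. Those WT libraries are the ones against which the second-table values of Tac1 and Penk were taken, and their part in those values was not tested. Without both of them and without the covariate, the log2 fold change was 1.46 for Tac1 and -1.13 for Penk. The genotype difference also depended on the table for Cav2 of the muscle markers (edgeR interaction, adjusted p = 0.0113). The same interaction test called Bach2 (adjusted p = 0.00317), the B cell markers Pax5 (0.00377) and Cd72 (0.00567), and the macrophage marker Irf5 (0.0479). It called 2.05% of all rows.

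Likeness over the 10 libraries was measured by the Pearson correlation of log2(CPM + 1) with 359 other coding genes tested inside the stretches. It is a description: the points share libraries and the genotype difference that chose the pair. The 5 genes most like Tac1 were Unc13b (r = 0.92, Spearman 0.94), Nans, which makes sialic acid (0.90 and 0.94), B4galt1, a galactosyltransferase (0.89 and 0.90), Tmeff1 (0.84 and 0.94) and Tmem64 (0.81 and 0.88). Over the 7 libraries without knockout libraries 1 to 3 the correlations of these genes with Tac1 were 0.87, 0.81, 0.70, 0.86 and 0.80. Gba2, a glucosylceramidase, was least like Tac1, at -0.90. Their own differences were smaller than that of Tac1: the log2 fold change was 0.72 ± 0.14 for B4galt1, 0.73 ± 0.12 for Tmem64 and 0.33 ± 0.10 for Nans.

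The 5 genes most like Penk were Rida (r = 0.96, Spearman 0.90), Thsd7a (0.93 and 0.85), Adamts12, a secreted matrix protease (0.88 and 0.79), Tmem229a (0.88 and 0.90) and Fsd1l (0.88 and 0.81). Tmem229a stood lower in the knockout by more than Penk did, with a log2 fold change of -1.69 ± 0.23, and held 1.23 to 2.96 CPM there against 6.18 to 7.58 in WT. Unc13b, the gene most like Tac1, was the least like Penk, at -0.77. Tac1 and Penk themselves had r = -0.63 (Spearman -0.60) over the 10 libraries. Without the 2 libraries farthest from the median of Tac1 it was -0.72. Without knockout libraries 1 to 3, which leaves 2 knockout libraries and so removes much of the genotype difference, it was -0.072 over 7 libraries.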

How the data were processed

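Colon RNA of 10 mouse libraries was measured by RNA sequencing on a BGISEQ-500. The deposited values are raw read counts per Ensembl gene in 2 tables. Per the submitters' processing notes, reads were aligned with HISAT2 (version 2.2.1 named for the first table) and counted with featureCounts 2.0.1; the notes name GRCh38, a human build, for the first table and mm10 for the second. Annotation and strand setting are not given in the sources used here. Names came from GENCODE M21; 3333 rows matched none. Tac1, Penk, the 3 stretches and the gene lists were chosen with earlier results of these data known. Named were the pair, every tested gene of the 6 peptide and nerve lists inside the stretches (1 of them is counted but not reported by name here), called genes of the cell type lists, and the 5 genes most like and 1 least like each of the pair; other genes, such as Osr2 and the neighbours, were named after their values were seen.

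CPM used column totals. edgeR 4.0.16 (R 4.3.3; TMM, filterByExpr, quasi-likelihood) was fitted over all 9736 rows with enough counts, with the table as covariate, and p-values were adjusted by Benjamini-Hochberg over all of them with a threshold of 0.05. The SE given for an edgeR log2 fold change is its absolute value divided by the square root of its quasi-likelihood F statistic. Likeness used a pseudocount of 1 CPM. Fits were also run on simulated counts in which all rows shared the same setting of spread, unlike the real rows. That run does not measure how often the calls given here are right. Alternatives were DESeq2 1.42.0, limma voom 3.58.1, other scaling, no filter, no covariate and each library left out. Depth was 3691322 to 4071238 counts per library, which gave 95% Wilson intervals of ±3.85% to ±15.8% of the value for the pair.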

Additional observations from a re-analysis of the deposited data

Results flagged for a closer look

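In WT, 1 of 5 libraries stood apart for Cntfr, a cytokine receptor subunit of neurons: library 1 held 10.6 CPM and the other 4 held 6.50 to 7.36. Over the named genes, 52 groups of libraries were examined in this way, 1 stood apart, and chance alone would give about 2.6 (1 in 20).

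Foxp2, a transcription factor of neurons and stroma, had a genotype difference that depended on the table (edgeR interaction, adjusted p = 0.0368). Knockout over WT, the first table gave a log2 fold change of -1.02, and the second gave 1.08.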

How the results depend on the processing

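The log2 fold changes of Tac1 and Penk kept their direction in all 17 alternatives over both tables, 11 in the first and 9 in the second. For Tac1, leaving out 1 library gave 1.33 to 1.70 over both tables, 1.84 to 2.10 in the first and 0.36 to 1.02 in the second. In the second table a genotype is then left with 1 library, so that value has no test. The Tac1 interaction of -1.26 passed with no filter (-1.34, edgeR interaction, adjusted p = 3.62e-07) and with DESeq2 (-1.27). With no filter its SE was 0.22, against 0.32 with the filter, and why the SE changed was not tested. Leaving out 1 library gave a Tac1 interaction of -1.64 to -0.97. The Penk interaction stayed on the same side in all 15 alternatives.

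The count of peptide and nerve genes that passed, 1, became 5 with no filter, 3 with DESeq2, 3 with voom and 2 with scaling inside the stretches. It was 0 without WT libraries 4 and 5 (an alternative chosen after seeing the data) and 0 with a minimum log2 of 1. Leaving out 1 library gave 0 to 2. The share of all rows called in each of these fits is not given here, so the counts are not a result about nerve genes. Over single libraries left out, log2 fold changes crossed 0 for Basp1 (-0.075 to 0.44), Cadps2 (-0.0016 to 0.15), Cdh6 (-0.17 to 0.19), Cntfr (-0.14 to 0.083), Cttnbp2 (-0.17 to 0.49), Foxp2 (-0.50 to 0.049), Npr3 (-0.0062 to 0.36), Ptprz1 (-0.45 to 0.046), Runx1t1 (-0.41 to 0.071) and Sema5a (-0.0997 to 0.15). Without WT libraries 4 and 5 the sign changed for Cdh6 (-0.21), Ctnnd2 (-0.081), Grin3a (0.23), Pax4 (0.17) and Sema5a (-0.14). The causes were not tested.

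No paired analysis was possible because knockout and WT libraries share no replicate numbers in their labels. Depth limits the lowest genes: 20 of the 44 list genes inside the stretches had too few counts to test.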

Other observations

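WT libraries 4 and 5 held high counts of a further gene beside Grin3a. Osr2, a transcription factor of gut stroma that was left out of the fit by its low counts elsewhere, stood at 114 and 478 CPM there and at 0.49 to 3.21 CPM in the other 8 libraries. Grin3a stood at 47.3 and 54.5 CPM in the same libraries. Tac1 in them, at 103 and 70.2 CPM, was the lowest of all 10 libraries, and Penk, at 169.7 and 121 CPM, lay within the range of WT libraries 1 to 3 for library 4 and below it for library 5.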
